A study of Mus musculus with 2 samples.

Results

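The neuronal intermediate filament genes are Nefh, Nefm and Nefl, which encode the heavy, medium and light neurofilament chains, Ina, which encodes α-internexin, and Prph, which encodes peripherin. They were read by gene symbol, and all 5 were found among the 39098 symbols measured in mouse trigeminal ganglion (TG), the ganglion that holds the sensory neurons of the face. Each of 2 single-cell libraries was made on the BD Rhapsody whole-transcriptome platform from dissociated TG cells of adult male C57BL/6 mice aged 5 to 8 weeks. The control library came from mice labelled untreated (the methods describe a saline injection), and the CFA library from mice given 20 µL of complete Freund's adjuvant, an oil emulsion that causes lasting inflammation, mixed 1:1 with saline and injected into the right vibrissal pad, the right TGs being taken a week after. How many mice went into a library is not stated in the labels. With 1 library per condition, condition and library cannot be told apart, cells of a library are not replicates, and no test between the conditions was possible.

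Neurons were taken as cells with at least 5000 UMIs (unique molecular identifiers, which count captured RNA molecules) of which at least 10 came from Tubb3, Snap25 and Stmn2 together. Of 7298 control and 4080 CFA barcodes, 6695 and 3661 passed the study's limits of at least 150 genes and at most 25% mitochondrial UMIs, and 795 and 409 of these were neurons. The median neuron held 44575 UMIs for control and 36857 for CFA, and all neurons of a library held 38555079 and 16768978 UMIs. Pairs of values without a further label are in the order control, CFA. The libraries shared 27 barcodes, none of them (0) among neurons. Levels are CPM, the counts of a gene summed over the neurons of a class and library, per 1000000 UMIs of those neurons. Brackets give exact Poisson 95% intervals for levels, exact binomial ones for ratios and exact Clopper-Pearson ones for shares, and all cover counting error only. UMIs are not divided by transcript length, so levels of different genes are compared only through how their ratio moves from class to class.

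Intermediate filaments are rope-like polymers without polarity that fill the axon. The neurofilament chains co-assemble, the long phosphorylated tails of the heavy and medium chains project sideways from the filament, and filament content goes with the calibre of large myelinated axons. α-Internexin is abundant in developing and central neurons, and peripherin is typical of neurons with axons outside the brain, small unmyelinated sensory neurons among them. High Nefh is the usual mark of myelinated sensory neurons.

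Clustering without these genes and 36 related ones gave 7 named neuron classes, called "-like" since they rest on marker genes. Trpm8-like neurons numbered 62 and 37 (control and CFA) and were led by the cold channel gene Trpm8 (199 and 216 CPM, at most 3.67 CPM in every other named class). PEP1-like neurons (373 and 205) carried the peptide genes Tac1 (7062 and 5556 CPM) and Calca (11890 and 9785 CPM), and PEP2-like neurons (12 and 11) carried Sst (2396 and 1681 CPM) and Nppb. NP1-like neurons (173 and 65) were marked by Mrgprd (511 and 476 CPM), NP2-like neurons (50 and 15) by Mrgpra3 (612 and 648 CPM), and C-fibre low-threshold mechanoreceptor-like (cLTMR-like) neurons (72 and 47) by Tafa4 (448 and 459 CPM). A-fibre low-threshold mechanoreceptor-like (A-LTMR-like) neurons (38 and 26) carried Calb1 (71.6 and 124 CPM) and Slc17a7 (86.5 and 112 CPM), but also Calca (3753 and 2625 CPM), and Pvalb, one of the markers for that class, stood at 6.61 and 2.29 CPM there against 174 and 136 CPM in Trpm8-like neurons. The A-LTMR-like label therefore held for only some of its cells. At a finer resolution its place was taken by a Calb1, Slc17a7 and Spp1 cluster (15 and 6 neurons) and a Trappc3l, Tac2 and Htr3a cluster (23 and 21 neurons). The latter had Calca at 5711 and 4459 CPM. Together they held slightly more CFA neurons than the class, so they did not match it cell for cell. At that resolution the same naming rule called the second and larger cluster PEP1-like. A further 15 and 3 neurons, with a median of 20.7% and 19.5% mitochondrial UMIs, stayed unnamed.

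In the annotation used here (GENCODE M21, genome build GRCm38), Nefh lies on chromosome 11 at 4938754-4948064 on the minus strand, Ina on chromosome 19 at 47014698-47025327 on the plus strand, and Prph on chromosome 15 at 99055174-99058978 on the plus strand. Nefm (chromosome 14, 68082590-68124846, minus strand) and Nefl (chromosome 14, 68083863-68089095, plus strand) overlap: a long Nefm transcript runs across the whole of Nefl on the opposite strand, while the other Nefm transcript starts and ends outside it (68119283-68124846). Whether the counting used strand is not stated, so a split of reads between Nefm and Nefl is uncertain. Start-site sequence from RefSeq (GRCm38.p6) was at hand for 2 of the 5 genes, Ina and Prph. They are shown because these genes had the lowest and the highest UMI counts of the 5 and because Prph but not Ina holds the exact string of a core promoter motif. Each runs from 250 bases before to 50 bases after the start, 5′ to 3′ on the plus strand (chr19:47014431-47014730 and chr15:99054924-99055223), and capitals mark TATAAA, searched on both strands.
Ina: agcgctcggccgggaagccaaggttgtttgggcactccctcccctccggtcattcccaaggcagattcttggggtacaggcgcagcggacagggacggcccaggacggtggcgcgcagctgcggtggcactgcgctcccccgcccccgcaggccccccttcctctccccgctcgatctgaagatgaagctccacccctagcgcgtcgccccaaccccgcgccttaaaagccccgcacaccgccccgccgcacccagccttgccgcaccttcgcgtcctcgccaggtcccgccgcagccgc
Prph: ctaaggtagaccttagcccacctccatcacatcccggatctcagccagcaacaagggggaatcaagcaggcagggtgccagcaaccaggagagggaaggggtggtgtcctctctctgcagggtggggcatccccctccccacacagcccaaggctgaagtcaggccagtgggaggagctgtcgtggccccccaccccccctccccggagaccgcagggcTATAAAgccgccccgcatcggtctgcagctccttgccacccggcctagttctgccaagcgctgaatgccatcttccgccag
The motif starts at position -31 from the start of Prph and was not found in the Ina window. It occurred in 13.62% of 32851 RefSeq promoters of the same length. GC content was 71.67% for Ina and 64.67% for Prph, against a median of 52.67% over those promoters. Near matches, such as ttaaaa in the Ina window, were not searched. A match is a match of letters and says nothing on use of the site.

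Prph was the most evenly spread of the 5 genes over the named neuron classes, and Nefh, Nefm and Ina the most uneven. Ina was low in the classes with the most Nefh, and in PEP2-like neurons both were low. The highest class exceeded the lowest by 1.53-fold (control) and 1.77-fold (CFA) for Prph, by 14.5- and 11.6-fold for Nefl, by 19.3- and 31.9-fold for Nefm, by 21.03- and 33.4-fold for Nefh, and by 24.5- and 30.3-fold for Ina. In both libraries Nefh and Nefm were highest in Trpm8-like neurons, Nefl in A-LTMR-like, Ina in NP1-like and Prph in cLTMR-like neurons. Among genes with at least 200 counts, 16.9% and 16.7% were highest in the Trpm8-like class, 13.2% and 14.3% in A-LTMR-like, 9.78% and 9.79% in NP1-like and 16.6% and 15.7% in cLTMR-like neurons (control and CFA). The order of the first places rested on which cells were called A-LTMR-like: at the finer resolution only its Calb1, Slc17a7 and Spp1 cluster kept that name, and it had Nefh at 1318 and 1383 CPM, against 1314 and 1342 CPM in the Trpm8-like class, and Nefm at 3940 and 4156 CPM, above that class. With every neuron thinned to 5000 UMIs, Nefh in the CFA library was also higher in A-LTMR-like (1185 CPM) than in Trpm8-like neurons (1016 CPM), as was its mean with every neuron weighted equally (1080 against 1055 CPM). Nefm was higher in A-LTMR-like neurons of both libraries when neurons were weighted equally (means of 2724 and 2786 CPM against 2238 and 2409 CPM), and likewise when thinned. Thinned Prph in the control library was highest in PEP2-like neurons (3150 CPM) instead of cLTMR-like ones.

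**Figure D1:**
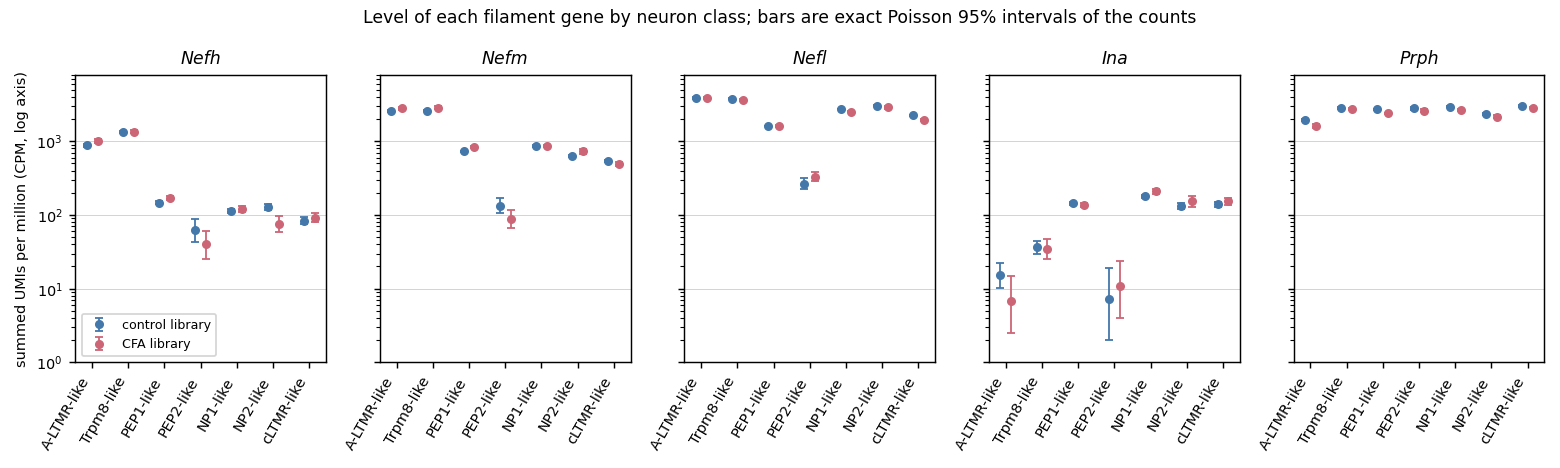
Level of each filament gene (CPM, log axis) in the 7 named neuron classes, with control and CFA libraries side by side and bars for exact Poisson 95% intervals. Nefh, Nefm and Nefl peak in Trpm8-like and A-LTMR-like neurons, Ina is lowest in A-LTMR-like and PEP2-like neurons, and Prph is close to level.

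Nefh, the heavy chain, divided the classes into a high and a low group. In Trpm8-like neurons it stood at 1314 CPM [1270, 1358] for control and 1342 CPM [1278, 1409] for CFA, and in A-LTMR-like neurons at 882 CPM [839, 926] and 1012 CPM [947, 1081]. No other named class exceeded 169.4 CPM. With no mitochondrial limit, where 21 neurons instead of 64 kept the A-LTMR-like name, PEP1-like neurons held 182 and 214 CPM. PEP1-like neurons came next at 146 CPM [140, 153] and 169 CPM [160, 179], followed by NP1-like neurons at 114 CPM [107.6, 120] and 122 CPM [111, 133]. NP2-like neurons held 127 CPM [116, 139] and 75.5 CPM [58.7, 95.8], cLTMR-like neurons 83.7 CPM [74.95, 93.3] and 91.9 CPM [79.6, 106], and PEP2-like neurons 62.5 CPM [43.3, 87.3] and 40.2 CPM [25.2, 60.8], from 34 and 22 counts. The ranges from the control to the CFA value overlapped between NP1-like and NP2-like and between NP2-like and cLTMR-like neurons, so those neighbours were not ordered. The counting intervals of cLTMR-like and PEP2-like neurons also overlapped in the control library.

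Single neurons spread widely around these sums. In the Trpm8-like class, Nefh per neuron ran from 112 to 4207 CPM with a median of 1049 CPM for control and from 0 to 2994 CPM with a median of 941 CPM for CFA. Control A-LTMR-like neurons ran from 162 to 2976 CPM (median 778 CPM) and CFA ones from 0 to 3868 CPM (median 743 CPM). High-Nefh neurons were therefore mostly, but not wholly, of these classes as named at the resolution used throughout. Of 795 control neurons, 80 (10.1%) reached 500 CPM of Nefh, and 72 of them (90%) were A-LTMR-like or Trpm8-like. Of 409 CFA neurons, 51 (12.5%) did, with 43 (84.3%) in the same classes. By class, 45 of 62 and 27 of 37 Trpm8-like, 27 of 38 and 16 of 26 A-LTMR-like, and only 6 of 373 and 7 of 205 PEP1-like neurons reached it.

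**Figure D2:**
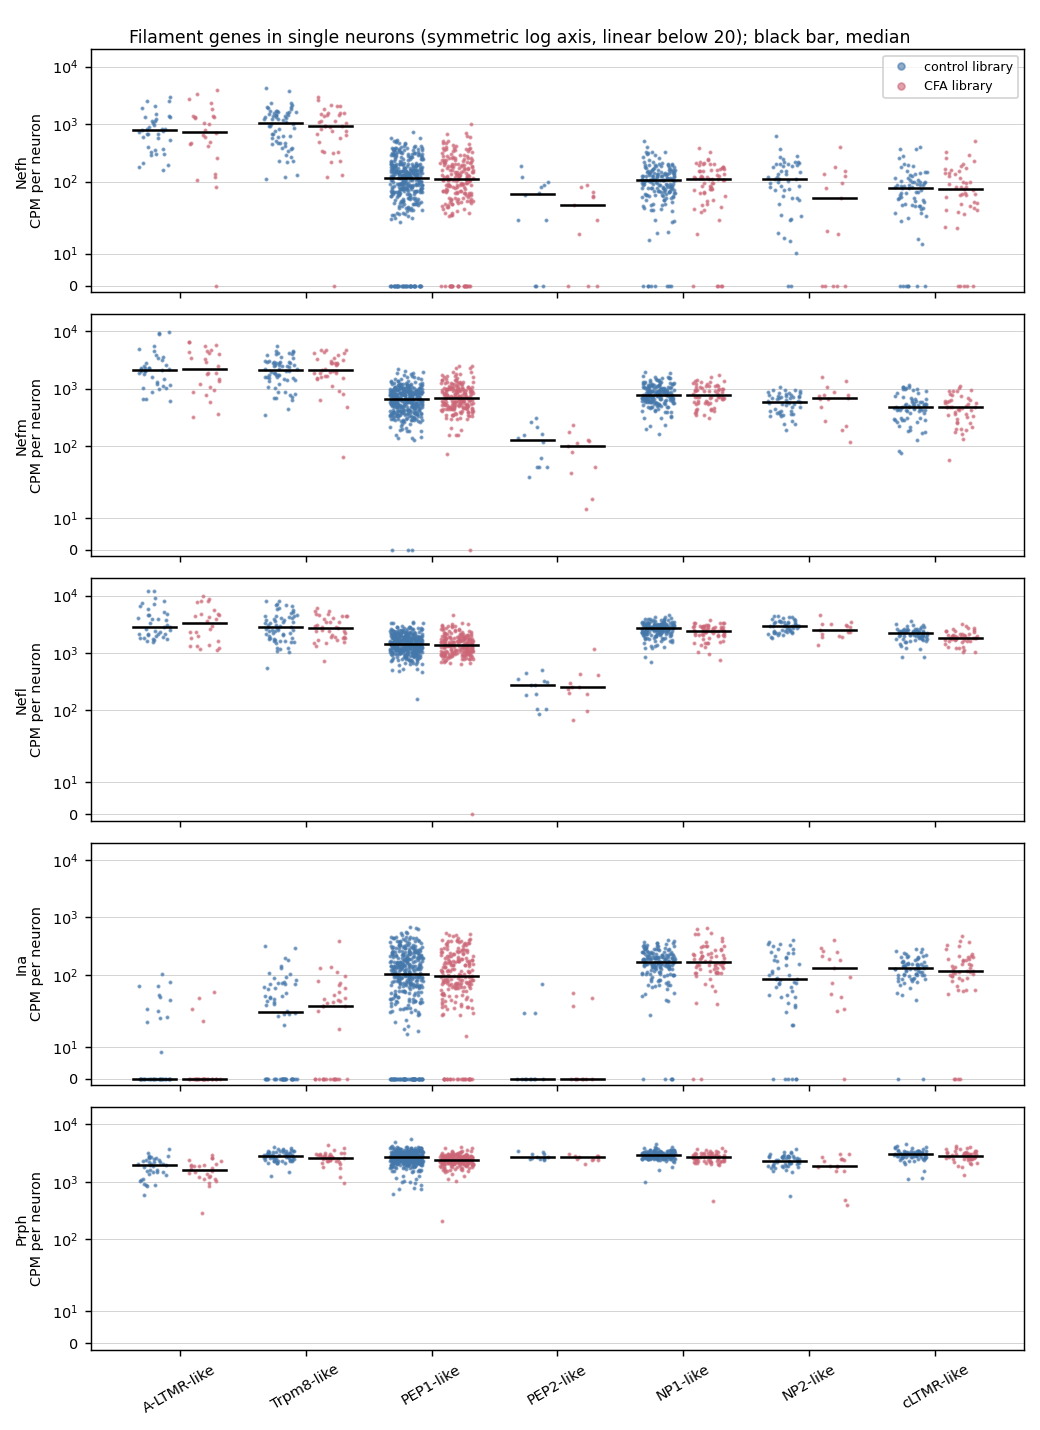
Level of each filament gene in every neuron (CPM, axis linear below 20 and logarithmic above), by class and library, with a black bar at the median. The Nefh points of Trpm8-like and A-LTMR-like neurons sit mostly above those of the other classes but reach down into them, and Ina has many neurons at 0 in these classes.

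Nefm, the medium chain, followed Nefh at a smaller contrast. Trpm8-like neurons held 2589 CPM [2528, 2651] and 2853 CPM [2759, 2950], and A-LTMR-like neurons 2551 CPM [2478, 2626] and 2775 CPM [2666, 2888], with overlapping ranges. NP1-like neurons (858 and 871 CPM), PEP1-like neurons (728 and 827 CPM), NP2-like neurons (630 and 734 CPM) and cLTMR-like neurons (537 and 491 CPM) formed a middle group. PEP2-like neurons were lowest with 134 CPM [105, 169] and 89.4 CPM [66.2, 118].

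Nefl, the light chain on which the other chains depend for filament assembly, was the broadest of the neurofilament genes. It reached 3861 CPM [3771, 3952] and 3835 CPM [3706, 3967] in A-LTMR-like and 3756 CPM [3683, 3831] and 3612 CPM [3506, 3721] in Trpm8-like neurons. The non-peptidergic classes were not far below: NP2-like neurons held 3036 and 2867 CPM, NP1-like neurons 2722 and 2500 CPM, and cLTMR-like neurons 2235 and 1913 CPM. PEP1-like neurons held less, 1607 and 1609 CPM. PEP2-like neurons stood far below every other named class at 266 CPM [225, 313] and 330 CPM [284, 382], with single neurons from 85.6 to 512 CPM (control) and from 68.0 to 1181 CPM (CFA). The ranges from the control to the CFA value of neighbouring classes in the order of Nefl did not overlap. The counting intervals of A-LTMR-like and Trpm8-like neurons did overlap in both libraries, so their order was not settled.

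All 3 neurofilament genes were thus lowest in the Sst- and Nppb-carrying PEP2-like neurons, in both libraries. That class was the lowest of the 7 for 25.7% and 22.3% of all genes with at least 200 counts, and it rested on 12 and 11 neurons. It was not short of UMIs, with medians of 45698 and 49245 per neuron.

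Ina had another distribution. NP1-like neurons held 180 CPM [172, 188] and 208 CPM [194, 223]. In cLTMR-like neurons it stood at 139 and 153 CPM, in NP2-like at 133 and 152 CPM, and in PEP1-like at 143 and 137 CPM, and these 3 classes overlapped. Both high-Nefh classes were low. Trpm8-like neurons held 36.9 CPM [29.9, 45.0] and 34.8 CPM [25.1, 47.0], and A-LTMR-like neurons 15.4 CPM [10.2, 22.3] and 6.86 CPM [2.52, 14.9], from 28 and 6 counts. PEP2-like neurons were as low, with 4 and 6 counts. No Ina molecule (0 UMIs) was captured in 25 of 38 and 22 of 26 A-LTMR-like neurons. In the Calb1, Slc17a7 and Spp1 cluster alone, 4 counts in the control (5.92 CPM) and 0 in the CFA library were seen, the latter allowing up to 10.7 CPM by the exact Poisson interval. The same neurons held Nefh at 1318 and 1383 CPM and Nefl at 5535 and 5637 CPM.

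Prph differed little between classes and was captured in every neuron of both libraries, with the lowest neuron at 563 CPM (control) and 209 CPM (CFA). Its levels in cLTMR-like (2993 and 2849 CPM), NP1-like (2925 and 2642 CPM), Trpm8-like (2800 and 2697 CPM), PEP2-like (2778 and 2592 CPM) and PEP1-like neurons (2692 and 2402 CPM) overlapped from each class to the next. NP2-like neurons held 2345 CPM [2296, 2396] and 2131 CPM [2036, 2228]. A-LTMR-like neurons were lowest with 1951 CPM [1887, 2016] and 1607 CPM [1524, 1693], as they were for 11% and 11.1% of genes with at least 200 counts, so Prph was present, and not scarce, in neurons rich in Nefh. The Trpm8-like class, among the 2 classes with the most Nefh and Nefm, had a Prph level within the range of the nociceptor-like classes in the control library. In the CFA library its 2697 CPM lay just above the highest of them, NP1-like neurons (2642 CPM).

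The make-up of the filament messages moved more than their sum. The 5 genes together took 10500 CPM in control and 10540 CPM in CFA Trpm8-like neurons and 3248 and 3063 CPM in PEP2-like neurons, the highest and lowest of the named classes. Nefh made up 12.5% and 12.7% of their UMIs in Trpm8-like and 9.52% and 10.96% in A-LTMR-like neurons, and between 1.27% and 3.29% in every other named class. Prph had the largest share in 8 of the 14 class and library pairs, namely PEP1-like, PEP2-like, NP1-like and cLTMR-like neurons of both libraries, and Nefl in the other 6. Peripherin messages took 85.5% [83.8, 87.1] and 84.6% [82.8, 86.3] in PEP2-like neurons but 21.1% and 17.4% in A-LTMR-like and 26.7% and 25.6% in Trpm8-like neurons. Ina never exceeded 3.28%, which it reached in CFA NP1-like neurons, and was 0.167% and 0.0742% in A-LTMR-like neurons.

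**Figure D3:**
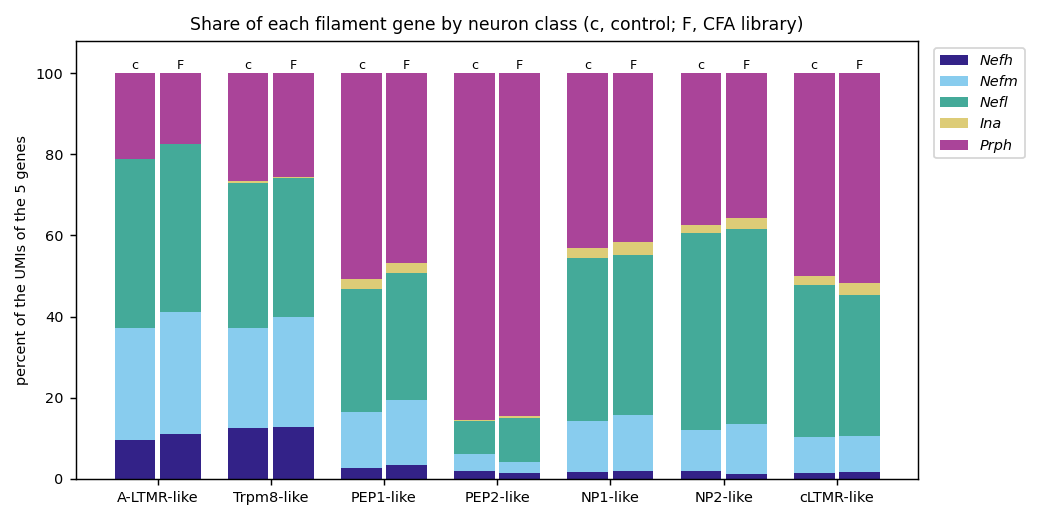
Percent of the summed UMIs of the 5 filament genes that each gene took, stacked to 100, in each named class (c, control library; F, CFA library). PEP2-like bars are mostly Prph (85.5% and 84.6%), and Nefh is widest in Trpm8-like and A-LTMR-like bars.

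Ratios within the triplet of neurofilament genes changed from class to class. For each Nefl UMI, Nefm gave 0.208 and 0.256 UMIs in NP2-like, 0.240 and 0.257 in cLTMR-like, 0.315 and 0.348 in NP1-like, 0.453 and 0.514 in PEP1-like, 0.661 and 0.724 in A-LTMR-like and 0.689 and 0.790 in Trpm8-like neurons. PEP2-like neurons gave 0.503 and 0.271 from few counts. Nefh per Nefl UMI was 0.0375 and 0.0481 in cLTMR-like and 0.0418 and 0.0264 in NP2-like neurons, against 0.350 and 0.372 in Trpm8-like neurons. A class with much Nefl therefore did not need to have much of the tailed chains: NP2-like neurons had the third level of Nefl and a smaller Nefm to Nefl ratio than the other classes, by little against cLTMR-like neurons in the CFA library. Prph per Nefl UMI ran from 0.505 and 0.419 in A-LTMR-like to 10.4 and 7.85 in PEP2-like neurons.

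Taken as 1 group, A-LTMR-like and Trpm8-like neurons exceeded the other 5 named classes in Nefh by 3.19 (control) and 3.16 (CFA) on the log2 scale of CPM (1138 against 125 CPM and 1204 against 134 CPM). The differences were 1.82 and 1.90 for Nefm, 0.80 and 0.95 for Nefl, -0.17 and -0.17 for Prph, and -2.43 and -2.75 for Ina. Across all genes with at least 50 counts, 7.63% and 6.80% were higher by at least 1 and 9.71% and 9.51% lower by at least 1. Only 0.872% of genes in the control library had a larger difference than Nefh, against 2.92% for Nefm and 10.6% for Nefl, and 97.1% lay above Ina. The grouped classes are those with the most Nefh, Nefm and Nefl in these same data. High places of these genes therefore follow from the choice of group, and they were not tested.

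Among 31 other genes linked to filaments with enough counts, 0 were higher by at least 1 in either library, and 2 were lower, shares not far from those over all genes (7.63% and 6.80% higher, 9.71% and 9.51% lower). Those lower were Vim, which encodes vimentin (-1.12 and -1.53), and Arhgef28, whose product binds Nefl RNA (-1.34 and -1.51). Synm, which encodes synemin, a large filament protein that joins other intermediate filaments, stood at 0.53 and 0.61. The median over crosslinkers of filaments to other parts of the cytoskeleton (Dst, Plec, Macf1) was 0.27 and 0.34, and over axonal transport motors (Kif5a, Kif5b, Kif5c, Kif1a, Dync1h1, Myo5a, Klc1) -0.22 and -0.16. It was -0.07 and -0.07 over kinases and a phosphatase that act on filament tails, -0.10 and -0.28 over turnover genes, 0.09 and 0.04 over binders of filament RNA, and -0.25 and -0.57 over 5 other intermediate filament genes.

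Finer clusters showed how far each named class was mixed. The Trpm8-like class split into a Pvalb-led cluster (35 and 18 neurons) and a Grxcr2-led one (27 and 19 neurons). Nefh stood at 1643 and 1717 CPM in the first and 495 and 606 CPM in the other, Nefl at 4445 and 4381 CPM against 2044 and 2103 CPM, and Ina at 19.0 and 30.0 CPM against 81.3 and 44.2 CPM. Trpm8 was carried by both, at 234 and 265 CPM and at 113 and 120 CPM. The Grxcr2-led cluster had more Calca (2525 and 1502 CPM against 428 and 87 CPM) and fewer UMIs per neuron (median 25410 against 50200), and the part of depth in the filament difference was not tested.

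A-LTMR-like neurons divided in the same manner. The Calb1, Slc17a7 and Spp1 cluster held Nefh at 1318 and 1383 CPM, Nefm at 3940 and 4156 CPM and Prph at 1575 and 1197 CPM. The Trappc3l, Tac2 and Htr3a cluster, named PEP1-like at the finer resolution, held Nefh at 622 and 767 CPM, Nefm at 1727 and 1874 CPM and Prph at 2174 and 1880 CPM. Among PEP1-like neurons, a cluster led by Mfap5, Gpr83 and Trpa1 (44 and 20 neurons) had Ina at 284 and 301 CPM, above every other named cluster in both libraries, and Prph at 3350 and 3108 CPM, also the highest. NP2-like neurons were split at the resolution used throughout: a Cbln1-led cluster (28 and 8 neurons) held Nefh at 187 and 129 CPM and Ina at 61.9 and 53.8 CPM, whereas a Mrgpra3-led cluster (22 and 7 neurons) held Nefh at 46.7 and 18.4 CPM and Ina at 228 and 257 CPM.

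**Figure D4:**
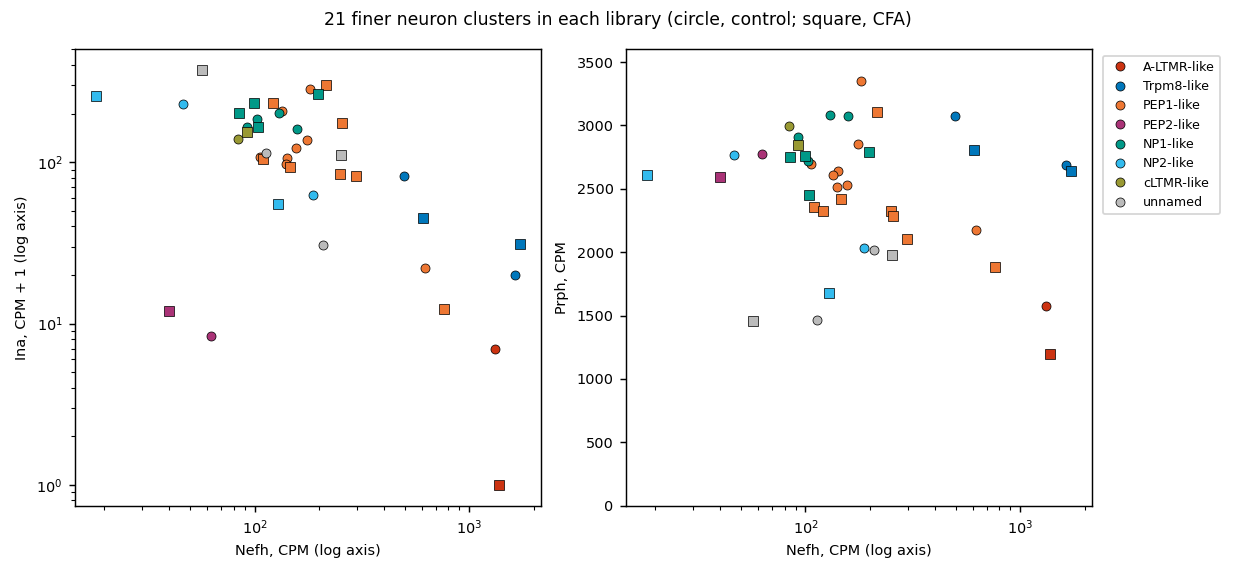
Nefh (CPM, log axis) against Ina (CPM + 1, log axis) and against Prph (CPM) in the 21 finer neuron clusters, with circles for the control and squares for the CFA library. Of the 4 clusters with the highest Nefh, the Grxcr2-led one lies above the Cbln1-led NP2-like cluster on the Ina axis in the control library, and the others lie low. The PEP2-like cluster, low in Nefh, also lies low in Ina. Prph of the 4 runs from 1197 to 3075 CPM.

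Across the 10 clusters with at least 15 neurons in each library, log2(CPM + 1) of Nefh correlated with that of Nefm (r = 0.94 control, 0.95 CFA) and Nefm with Nefl (0.82 and 0.82), while Nefh ran against Ina (-0.81 and -0.79) and Ina with Prph (0.81 and 0.80). The limit left out, among others, the PEP2-like neurons (12 and 11) and both NP2-like clusters (28 and 8, and 22 and 7 neurons). In PEP2-like neurons Nefh and Ina were both low and Prph was not. Of the 10 clusters, the Trpm8-like and A-LTMR-like ones had the most Nefh (1314 and 882 CPM, control) and the least Ina (36.9 and 15.4 CPM). Among the rest, a PEP1-like cluster led by Mfap5 had the most Nefh (181 CPM) and Ina (284 CPM) in the control library. In the CFA library a Ptk2b-led one had the most Nefh (317 CPM), with Ina at 80.8 CPM. A correlation without the high-Nefh clusters was not computed. The clusters share their library, and the values describe them only. Of 5771 genes with enough counts, those closest to Nefh were Snrpn (the lower r of the libraries 0.93), Stmn3, Ndufa12, Ndufv2 and Ndufb3 (each 0.90). Closest to Nefm were Adam23 (0.94), Ndufc1 (0.91), Stmn3 (0.90), Ndufc2 (0.86) and Bend6 (0.85), and closest to Nefl were Lhfpl4 (0.89), Gyg (0.88), Lysmd2 (0.87) and Gm28437 (0.86). Cd44 (0.87), Pde6d and Vamp2 (0.86), Plrg1 (0.85) and Cep83os (0.84) were closest to Ina, and Ndst1 and Ldb2 (0.84), Arhgap26 (0.81), Arhgap17 (0.77) and Ppil4 (0.73) to Prph. With 11 finer clusters, only 6 of the 25 closest genes stayed in the lists. These clusters lacked the PEP2-like and NP2-like ones and also the Calb1, Slc17a7 and Spp1 cluster (15 and 6 neurons). Ina with Prph fell to 0.59 and 0.58 there, while Nefh with Nefm gave 0.96 and 0.97, Nefm with Nefl 0.78 and 0.76, and Nefh with Ina -0.84 and -0.77.

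Neuron by neuron the links were looser. Across all neurons, log2(CPM + 1) of Nefm and Nefl correlated with r = 0.57 in the control (n = 795) and 0.75 in the CFA library (n = 409), or 0.40 and 0.49 when each neuron was thinned to 5000 UMIs. Nefh and Nefm gave 0.41 and 0.46, Nefh and Ina -0.16 and -0.15, and Ina and Prph 0.32 and 0.31 (0.09 and 0.05 thinned). In the 62 control Trpm8-like neurons the values were 0.83 for Nefm and Nefl, 0.79 for Nefh and Nefl and 0.71 for Nefh and Nefm (0.62, 0.64 and 0.54 thinned). In the 50 control NP2-like neurons, Nefh ran against Ina (-0.39, or -0.32 thinned) and Prph (-0.44, but -0.11 thinned). Classes under 50 neurons in a library were not computed. Neurons of 1 library share depth and class, and over all neurons Nefl was itself higher in those with more UMIs (Spearman 0.44 and 0.29). In control Trpm8-like neurons Nefh, Nefm and Nefl all rose with UMIs per neuron (Spearman 0.54, 0.55 and 0.62, or 0.47, 0.42 and 0.56 thinned). That class also mixes the Pvalb-led and Grxcr2-led clusters, which differ in depth and in filament levels. The part of depth and of this mix in its correlations was not tested.

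At an equal depth of 5000 UMIs per neuron, Prph was detected in 100% of neurons of both libraries, Nefl in 99.2% and 99.02%, Nefm in 91.7% and 91.4%, Nefh in 50.4% and 51.6% and Ina in 45.2% and 40.1% (without thinning, Nefh in 92.6% and 89.5% and Ina in 83.3% and 81.9%). By class, thinned Nefh was detected in 96.8% and 83.8% of Trpm8-like but 45.6% and 53.7% of PEP1-like neurons. Thinned Ina was detected in 61.8% and 58.5% of NP1-like neurons, in 1 of 38 and 1 of 26 A-LTMR-like neurons, and in 0 of 12 and 0 of 11 PEP2-like neurons (upper bounds 26.5% and 28.5%).

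Messages of these genes also appeared in cells that should lack them. Thinned to 500 UMIs, named non-neuronal cells (5358 and 3012) held Nefh in 0.970% and 0.432%, Nefm in 2.54% and 1.23%, Nefl in 5.06% and 2.26%, Ina in 0.243% and 0.0332% and Prph in 5.99% and 2.89%. Neurons at the same depth held them in 9.56% and 11.98%, 31.1% and 36.4%, 62.0% and 56.0%, 6.16% and 7.33%, and 74.3% and 70.7%. Cells outside neurons that were left unnamed (404 and 157) held more than the named ones: Nefl in 22.0% and 16.6%, Ina in 2.23% and 2.55% and Prph in 23.8% and 22.3%. Most of them lay in a cluster led by Meg3 among others (279 and 94 cells), with Prph at 1039 and 1100 CPM. What these cells are was not tested. The makeup of the filament UMIs in the named control non-neuronal cells (5.73% Nefh, 17.9% Nefm, 34.5% Nefl, 1.91% Ina, 40.0% Prph) was near that of all control neurons (3.77%, 14.7%, 36.9%, 2.13% and 42.4%). In the CFA library it lay further off for some genes (Nefh 7.62% against 4.42%, Nefm 21.2% against 16.7%, Ina 1.33% against 2.29%). As CPM, Ina in the control library came nearest to the non-neuronal cells (5.35 CPM) in PEP2-like neurons (7.35 CPM). In the CFA library it came nearest to them (1.76 CPM) in A-LTMR-like neurons (6.86 CPM), with PEP2-like neurons at 10.9 CPM. As UMIs per cell, PEP2-like neurons held 0.333 and 0.545 and A-LTMR-like neurons 0.737 and 0.231, against 0.00861 and 0.0026 per named non-neuronal cell. UMIs per cell also follow depth. The median of all UMIs was 45698 and 49245 per PEP2-like and 47588 and 24974 per A-LTMR-like neuron, against 1276 and 1074 per named non-neuronal cell. Whether the few Ina UMIs came from these neurons themselves was not tested.

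Between the libraries, differences within classes were small beside the gap from highest to lowest class for Nefh, Nefm, Nefl and Ina. For Prph that gap was itself only 1.53-fold and 1.77-fold, and A-LTMR-like neurons went from 1951 to 1607 CPM. Differences between the libraries could also exceed the gaps between neighbouring low classes, as for Nefh in NP2-like neurons (127 to 75.5 CPM). Over all neurons, Nefh went from 242 CPM (control) to 267 CPM (CFA), which is 0.14 [0.09, 0.19] as a log2 ratio. Nefm went from 943 to 1012 CPM (0.10 [0.07, 0.13]), Nefl from 2374 to 2146 CPM (-0.15 [-0.16, -0.13]), Ina from 137 to 139 CPM (0.02 [-0.05, 0.09]) and Prph from 2727 to 2486 CPM (-0.13 [-0.15, -0.12]). None of the 5 passed the fold of 0.2 on the log2 scale that the study used. The study also set a significance limit by a Wilcoxon rank sum test, which was not applied here. The fold alone was passed upward by 22.6% of 14512 genes and downward by 21.7%. These ratios mix what each neuron held with which neurons were caught: NP1-like neurons, rich in Nefl, were 173 of 795 control and 65 of 409 CFA neurons. With the clusters given equal weights in both libraries, the log2 ratio was -0.05 for Nefl, -0.14 for Prph, 0.10 for Nefh and 0.14 for Ina.

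Within classes, 33 of the 35 gene and class pairs had at least 50 counts, and 4 were higher and 5 lower in the CFA library by the fold of 0.2. Over all genes of the 7 classes, 23.5% of pairs were higher and 27.4% lower by this fold, so both counts lay below the background share. The pairs that were higher were Nefh in PEP1-like neurons (146 to 169 CPM, 0.21 [0.11, 0.31]), Ina in NP1-like neurons (180 to 208 CPM, 0.21 [0.09, 0.33]), Nefm in NP2-like neurons (630 to 734 CPM, 0.22 [0.09, 0.35]) and Nefl in PEP2-like neurons (266 to 330 CPM, 0.31 [-0.01, 0.64]). Those that were lower were Prph in A-LTMR-like neurons (1951 to 1607 CPM, -0.28 [-0.37, -0.19]), Nefl in cLTMR-like neurons (2235 to 1913 CPM, -0.22 [-0.28, -0.17]), Nefh in NP2-like neurons (127 to 75.5 CPM, -0.75 [-1.14, -0.38]), and Nefh (-0.64 [-1.48, 0.18]) and Nefm (-0.58 [-1.14, -0.04]) in PEP2-like neurons. Nefh in A-LTMR-like neurons, at 0.20 [0.08, 0.32], lay just inside the fold. The mix of that class differed between the libraries. The finer clusters in its place held 15 Calb1, Slc17a7 and Spp1 neurons to 23 Trappc3l, Tac2 and Htr3a neurons in control, and 6 to 21 in CFA. In both clusters Nefh was higher and Prph lower in the CFA library, at the levels given above. The part of the mix in the ratios of the class was not tested.

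**Figure D5:**
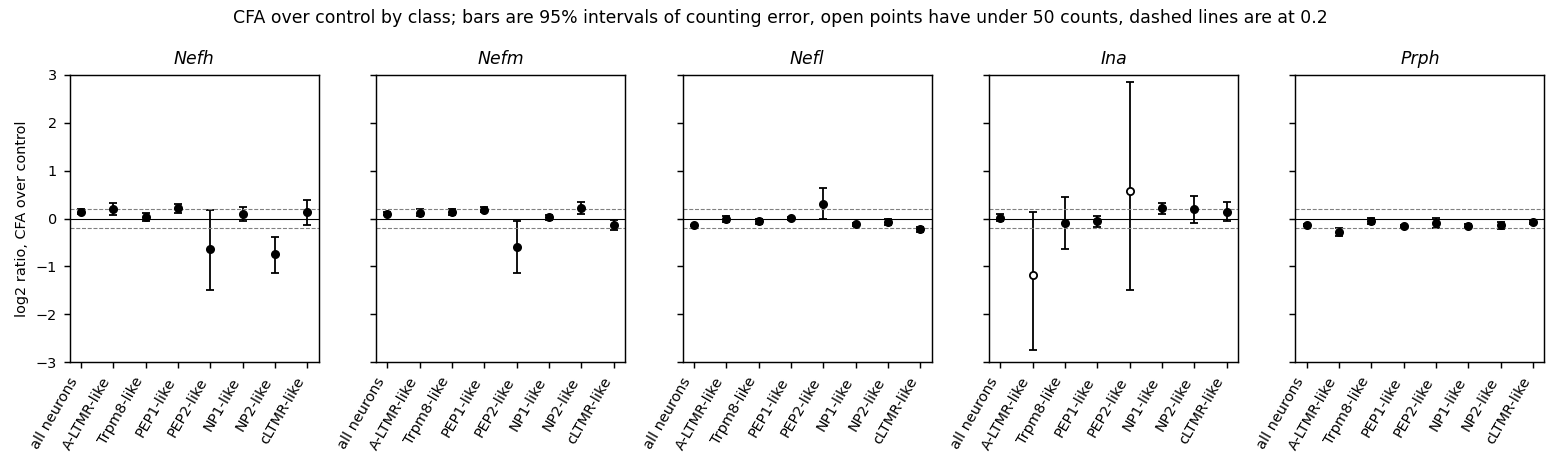
Log2 ratio of CPM, CFA over control library, for each filament gene in each named class, with exact 95% counting intervals, dashed lines at a fold of 0.2 and open points for pairs under 50 counts. Prph lies below 0 in all 7 classes, from percentile 23.5 to percentile 48.2 among all genes of a class. The ratios farthest from 0 belong to classes of few neurons.

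Prph was lower in the CFA library in all 7 classes, from -0.28 to -0.05, with an interval below 0 in 5 of them, but with neurons thinned to 5000 UMIs it was 0.04 in A-LTMR-like and 0.05 in Trpm8-like neurons. Among all genes of a class, its ratio ran from percentile 23.5 (A-LTMR-like, median gene at 0.007) to percentile 48.2 (Trpm8-like, median gene at -0.040). In some classes its shift was thus close to that of the median gene. Nefl was higher in 2 and lower in 5 classes, and Nefh and Nefm were each higher in 5 and lower in 2. The 7 ratios of a gene share the same pair of libraries and are not independent. For Nefh in PEP1-like neurons, the median per neuron did not rise with the sums, at 115 CPM (control) and 109 CPM (CFA). The mean per neuron did, from 140 to 152 CPM, as did the upper quartile, from 184 to 206 CPM. Nefh in NP2-like neurons was lower in both of its clusters, and 5 of 15 CFA neurons against 2 of 50 control neurons held no Nefh UMI. Nefm in NP2-like neurons was higher only in the Mrgpra3-led cluster (748 to 1021 CPM), the Cbln1-led one going from 542 to 465 CPM.

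Other quantities moved with the libraries as well. Interferon response genes, 12 of 12 lower in the CFA library by the fold over all neurons (median log2 ratio -1.25, summed level 424 to 201 CPM), had a lower summed level in PEP1-like (708 to 287 CPM), A-LTMR-like (765 to 132 CPM), NP1-like (266 to 167 CPM), NP2-like (201 to 107.8 CPM), cLTMR-like (103 to 56.8 CPM) and PEP2-like neurons (119 to 98.6 CPM), but not in Trpm8-like neurons (199 to 240 CPM). Their part in the filament differences was not tested. Nefh in PEP1-like neurons was 0.19, just inside the fold, without the cluster led by interferon-induced genes (21 and 3 neurons), and 0.12 with every neuron weighted equally. Median UMIs per A-LTMR-like neuron were 47588 (control) and 24974 (CFA), which was not tested either. Over all neurons, 10 of 24 mitochondrially encoded genes were higher and 9 lower, and 1 of 7 nerve injury genes was higher and 0 lower. Of all genes, 22.6% were higher and 21.7% lower, the background for these counts and for the interferon count. The nerve injury counts lay below these shares. In NP2-like neurons, which had the Nefh ratio of -0.75, 9 of 14 mitochondrially encoded genes were higher and 3 lower (23% and 30.6% of all genes in that class), and their sum went from 19160 to 29180 CPM, whose part was not tested.

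Genes that act on filaments were mostly within the fold over all neurons, as were most genes (22.6% higher and 21.7% lower). Among other intermediate filament genes, 5 of 10 had enough counts, and Synm was higher (384 to 446 CPM, 0.22) and Lmnb2, a nuclear lamin, lower (11.3 to 9.54 CPM, -0.24), while Vim (180 to 169 CPM) and Lmna (146 to 150 CPM) were within the fold. Of 7 tail kinase and phosphatase genes, Gsk3b was higher (445 to 582 CPM, 0.39) and Gsk3a lower (103 to 87.5 CPM, -0.24), although both encode forms of glycogen synthase kinase 3. Of 7 motor genes, Kif5a, a kinesin heavy chain that carries neurofilaments, was higher (771 to 905 CPM, 0.23). None of 3 crosslinkers, 5 turnover genes and 4 binders of filament RNA passed the fold, with medians of 0.06, 0.05 and 0.09 against -0.0025 over all genes. In A-LTMR-like neurons, by contrast, 6 of 7 motors, 3 of 3 crosslinkers and 3 of 5 turnover genes were higher and 1 turnover gene lower (medians 0.39, 0.39 and 0.26), where 31.4% of all genes were higher and 29.7% lower. The mix and the depth of this class differed between the libraries, as given above, and their part was not tested.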

How the data were processed

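The authors deposited 1 table of UMI counts per library, with genes by cells, whole numbers and no normalization. The submitters' processing notes name fastp and genome build GRCm38. The aligner, the annotation used for counting, the pipeline version and strand use are not given in the sources used here. Samples were grouped by their labels into 1 control and 1 CFA library, and all columns were used. The 5 genes and the gene lists were chosen with earlier results of these data known.

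Cells with at least 150 genes and at most 25% mitochondrial UMIs were kept, as in the study, and neurons taken by the rule in the text. Neurons were clustered with Seurat 5.3.0 in R 4.3.3 (20 components of 2000 variable genes after log normalization, Louvain resolution 1 on 20 nearest neighbours, seed 1, and resolution 0.8 for all cells), leaving out 41 genes, namely the 5 members and 36 listed genes. A cluster took the class whose markers had the highest mean level relative to their highest cluster. The name was given only with at least 3 of these markers at 0.25 of that level or more. A marker counted only if a share of at least 0.1 of the cluster's cells held it. The 10 leading genes could not hold more markers of another class than of that one. A cluster of low depth with 0 markers of its class among these genes also stayed unnamed. By this last limit the unnamed neurons, nearest to NP1-like, were left out. Their medians were 13514 (control) and 11101 UMIs (CFA), against 44575 and 36857 over all neurons. For all cells, a cluster led by Gpr17 and one led by Meg3 were left unnamed after their leading genes were seen. Scrublet (scanpy 1.11.5, expected rate 0.05) called 107 control and 4 CFA cells, too few in CFA to rely on, with 5 and 0 among neurons, and calls were kept in. Sums, intervals and ratios used scipy 1.17.1, numpy 2.4.6 and pandas 2.3.3 (Python 3.11.15), were drawn with matplotlib 3.10.9, and the code was tested on simulated data. A CFA over control ratio was read from 50 counts upward. A log2 ratio of 0.2, the fold of the study without its added significance limit, counted as higher or lower. With 1 library per condition no p-value was computed, and intervals cover counting error only.

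Genes named are the 5 members, the genes of 6 lists (other intermediate filaments, filament crosslinkers, tail kinases and phosphatase, axonal transport motors, turnover, binders of filament RNA), genes of the interferon, nerve injury and mitochondrially encoded lists as counts, markers, and for each member the 5 genes with the highest correlation over clusters, ranked by the lower r of the libraries, among genes with at least 500 counts in each (1 of the genes so chosen is not reported here). Alternatives covered the mitochondrial limit, doublets, depth and marker limits, weighting, thinning, resolution, number of components, genes left out, totals, centring, fold and count minimum.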

Additional observations from a re-analysis of the deposited data

Results flagged for a closer look

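The CFA over control difference of Nefh went opposite ways in neuron classes. It was 0.21 on the log2 scale in PEP1-like neurons (373 control and 205 CFA neurons, 146 to 169 CPM) and -0.75 in NP2-like neurons (50 and 15 neurons, 127 to 75.5 CPM). The intervals of counting error were [0.11, 0.31] and [-1.14, -0.38]. This pair was picked because its intervals lay on opposite sides of no change, so that they do not overlap follows from the choice. The difference between the classes was not tested, since each class has 1 library per condition. The NP2-like value rested on 68 CFA counts, and Nefh was lower in both NP2-like clusters (187 to 129 CPM and 46.7 to 18.4 CPM).

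Nefm likewise went from 630 to 734 CPM in NP2-like neurons, a log2 ratio of 0.22, and from 134 to 89.4 CPM in PEP2-like neurons, a log2 ratio of -0.58. This pair was picked in the same way. Its difference was not tested either, and the PEP2-like value rested on 73 and 49 counts from 12 and 11 neurons.

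Ina was seen outside neurons, in a cluster that was not read on its own above. A small unnamed cluster led by Gpr17, Neu4, Vcan and Olig1, the last a transcription factor of the oligodendrocyte lineage (13 control and 18 CFA cells), held Ina at 175.8 CPM [75.9, 346] in the control and 206.9 CPM [107, 361] in the CFA library. These levels came from 8 and 12 UMIs in 6 and 6 cells. The named non-neuronal cells as a whole held 5.35 and 1.76 CPM. The unnamed Meg3-led cluster held 25.5 and 68.8 CPM, from 13 and 10 UMIs. Nefh was at 0 counts in the Gpr17-led cluster in both libraries, which allows up to 81.1 and 63.6 CPM by the exact Poisson 95% interval, and Prph had 6 and 2 UMIs there.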

How the results depend on the processing

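No paired analysis was possible because each condition had 1 library, and no replicate could be left out. The limits are that the library and the condition cannot be told apart, that PEP2-like (23 neurons in all), NP2-like and A-LTMR-like values rest on few cells, and that UMIs per neuron were fewer in the CFA library. The number of gene and library pairs, of 10, with the same highest class was 6 with no mitochondrial limit, thinned to 5000 UMIs, at resolution 0.5, at resolution 2 and with no gene left out of clustering. All but the thinning kept 21 neurons as A-LTMR-like instead of 64. The number of ratios past the fold was 9 as reported and 15 when thinned. The share of genes past the fold over all neurons, 44.3% as reported, was 12.3% at a fold of 0.5 and 75.2% with no count minimum. Only 6 of 25 genes most like the members were shared with resolution 2. Among log2 ratios past the fold, those that changed sign were Prph in A-LTMR-like neurons, 0.043 when thinned, Nefh in PEP2-like neurons, 0.13 when thinned, and Nefl in PEP2-like neurons, -0.031 with 30 principal components. Ratios inside the fold that changed sign reached 0.05 for Prph in Trpm8-like, -0.13, -0.24 and -0.06 for Nefh in Trpm8-like, NP1-like and cLTMR-like, -0.02 for Nefm in NP1-like, -0.05 and 0.08 for Nefl in PEP1-like and A-LTMR-like neurons, and -0.03 for Ina over all neurons. The cause was not tested. Of the log2 ratios other than the first 3, over the 5 genes, all classes and alternatives, 558 moved by less than their counting interval and 39 by more. The levels that moved by over 1.5 times were those of Ina in A-LTMR-like neurons (5.92 and 0 CPM in the narrower class) and PEP2-like neurons, Nefh in control PEP2-like neurons (33.3 CPM thinned) and Nefm in control A-LTMR-like neurons (3940 CPM in the narrower class). Removing cells with a Scrublet score above 0.25, and leaving out the interferon-led PEP1-like cluster (8 ratios past the fold), were chosen after seeing the data.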
